A study of Mus musculus with 12 samples.

Results

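The genes described here are 10 regulators of stem cell dormancy, chosen by name from the 24946 gene rows of the expression table. They are 4 cyclin-dependent kinase (CDK) inhibitors (Cdkn1a, Cdkn1b, Cdkn1c and Cdkn2c), the pocket proteins Rb1 and Rbl2, the transcription factors Foxo1 and Foxo3, the redox regulator Txnip and the kinase Cdk6. All 10 were in the table and all 10 passed the filter on low values, which kept 10816 genes with at least 100 normalized units in at least 3 libraries. RNA-seq had been done on haematopoietic stem cells (HSCs) sorted from bone marrow of C57BL/6 mice, in 12 libraries, 3 in each of 4 groups. The groups were Bst2 knockout (KO) mice given recombinant mouse interferon-γ (IFN-γ, 100 µg) for 24 h, naive KO mice, wild-type (WT) mice given the same IFN-γ, and naive WT mice. The labels describe neither the knockout allele nor the age or sex of the mice, and they do not tie libraries to animals, so p-values reflect variation among the libraries alone, which may be technical. The protein that Bst2 encodes, tetherin, sits in the cell membrane and is induced by interferons.

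Most adult HSCs rest outside the cell cycle. Entry into the cycle starts when D-type cyclins with Cdk4 or Cdk6 phosphorylate the pocket proteins, which otherwise hold E2F factors on repressed cell-cycle genes. The Cip/Kip inhibitors p21 (Cdkn1a), p27 (Cdkn1b) and p57 (Cdkn1c) bind cyclin-CDK complexes, whereas the INK4 inhibitor p18 (Cdkn2c) binds Cdk4 and Cdk6. FOXO factors are kept out of the nucleus by AKT signalling and, when nuclear, activate genes for arrest and antioxidant defence. Txnip binds thioredoxin and limits glucose uptake, and Cdk6 is known to set how readily HSCs leave quiescence. Interferons are known to draw HSCs into cycle, which is the setting of the present comparison.

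The library codes in the titles fell into 3 series: FL-06 with 6 libraries, R-09 with 4 libraries (1 in each group) and R-07 with 2 libraries, both KO. The labels do not say what these codes mean. The R-09 libraries stood apart from the other 8, and 68.0% of the genes tested differed between R-09 and FL-06 (limma, adjusted p under 0.05). The code series was therefore a term in every fit, and results are also given without R-09. Deposited totals were 13.8 to 17.7 M units per library. The library WT naive 2 had 10567 genes above 0, against 12395 to 14640 in the other 11, and its lowest value above 0 was 15.5 units. Bst2 was at 0 to 24.8 units in the 6 KO libraries and at 152 to 1514 units in the 6 WT libraries, with no overlap. Of the genes of the sort gate, Kit was at 5902 to 8360 units in R-09 and 8462 to 11369 in the other libraries, Slamf1 (CD150) at 569 to 715 and 281 to 768, Cd48 at 368 to 582 and 1.08 to 268, and Cd34 at 3098 to 3629 and 462 to 821. RNA of the negative-gate markers Cd48 and Cd34 was thus above every other library in R-09.

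**Figure D1:**
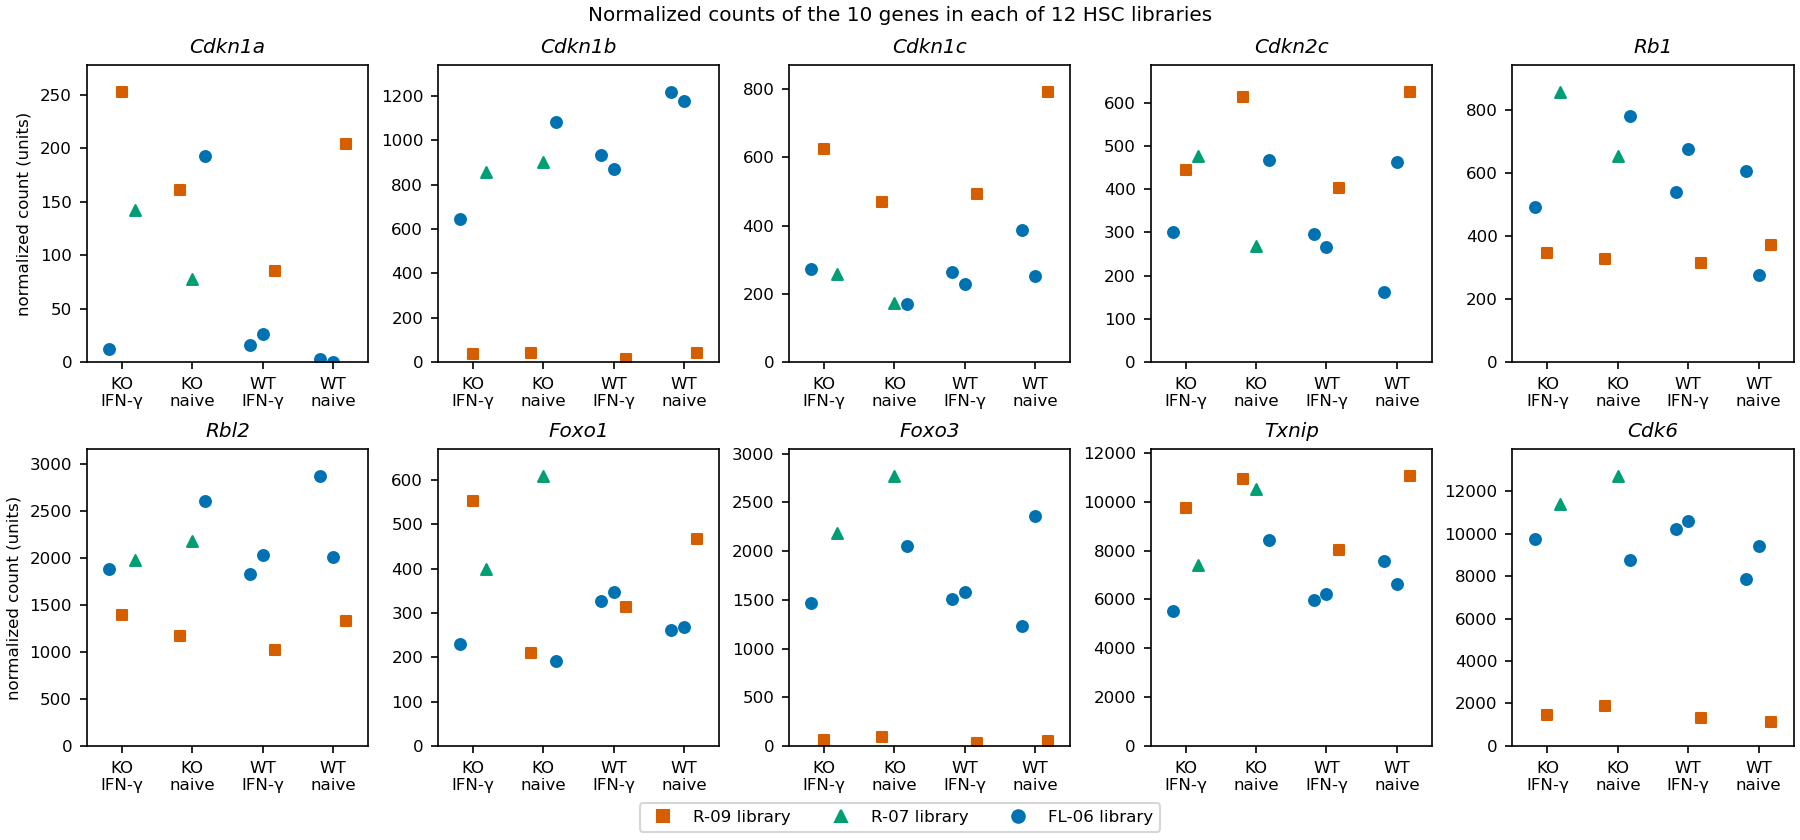
Normalized units (linear axis) of each of the 10 genes in each of the 12 libraries, by group and with the code series marked. Cdkn1b, Foxo3 and Cdk6 lie far lower in the 4 R-09 libraries than in the other 8, whichever the group.

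After IFN-γ, none of the 10 genes passed the test. Averaged over the 2 genotypes, 0 of 10 had an adjusted p under 0.05 (limma, Benjamini-Hochberg over all genes tested), where 0.0647% of the genes tested did. At an unadjusted p under 0.05 there was 1 gene, Txnip, where 6.06% of the genes tested were. The median log2 difference of the 10 genes was −0.04, against 0.07 over all genes tested. Because this is bulk RNA, fewer cells of a type and less RNA per cell cannot be told apart.

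Txnip, a target of glucose-sensing factors as well as a thioredoxin inhibitor, came nearest to the threshold. In KO mice it stood at 5545, 9748 and 7397 units after IFN-γ, against 10935, 10525 and 8443 units in naive KO libraries. In WT mice it stood at 5989, 6208 and 8023 units after IFN-γ, against 7589, 6636 and 11057 units in naive WT libraries. The groups overlapped in both genotypes, yet each IFN-γ library was below the naive libraries of its own genotype and code series. The averaged log2 difference was −0.36 (SE 0.078, 95% interval −0.54 to −0.19), a 0.78-fold level, with an adjusted p = 0.215 (limma). Without the R-09 libraries it was −0.39 with an adjusted p = 0.312. Leaving out each library in turn gave adjusted p-values of 0.0750 to 0.823.

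Cdkn1b and Foxo3 were the other genes with lower values after IFN-γ in each pairing of genotype and code series. Cdkn1b had 647, 35.0 and 857 units in KO libraries after IFN-γ, against 39.5, 903 and 1084 units in naive KO libraries. In WT libraries it had 932, 868 and 15.03 units after IFN-γ, against 1216, 1179 and 42.2 units in naive mice. In each of these groups the value far below its neighbours was the R-09 library. The averaged log2 difference of Cdkn1b was −0.54 (SE 0.27, adjusted p = 0.80, limma), and −0.41 without R-09.

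Foxo3 is the FOXO factor most closely tied to HSC maintenance in mice. It had 1465, 62.8 and 2188 units in KO libraries after IFN-γ, against 90.4, 2769.95 and 2050.3 units in naive KO libraries. WT libraries had 1507, 1578 and 27.1 units after IFN-γ, against 1226, 2364 and 47.5 units in naive mice. The IFN-γ and naive values overlapped in both genotypes, with and without the R-09 libraries. Its averaged log2 difference was −0.40 (SE 0.24, adjusted p = 0.80, limma), and −0.28 without R-09.

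With libraries averaged on the log2 scale within the 5 pairings of genotype and code series, 3 of the 10 genes (30.0%) were lower after IFN-γ in 5 of 5, namely Cdkn1b, Foxo3 and Txnip, where 2.98% of the genes tested were. Of the 10, 0 were higher in 5 of 5, where 4.52% of the genes tested were. The pairings hold 1 or 2 libraries a side, so the count is a description. For Txnip the 5 log2 differences ran from −0.61 (KO, FL-06) to −0.17 (KO, R-09). For Cdkn1b they ran from −1.43 (WT, R-09) to −0.08 (KO, R-07), and for Foxo3 from −0.79 (WT, R-09) to −0.14 (WT, FL-06). The R-09 values of both genes lay below the filter's minimum of 100 units, at 15.03 to 42.2 for Cdkn1b and 27.1 to 90.4 for Foxo3. Their R-09 signs, in WT and in KO, and the largest difference of each gene thus rest on single libraries at low values. The summed level of 12 neutrophil marker genes was also lower after IFN-γ in 5 of 5 pairings, with ratios of 0.47 to 0.87. The single genes were not uniform. S100a8, S100a9, Ngp, Ltf, Lcn2 and Prtn3 were lower in 5 of 5, whereas Mpo, of the highest mean in the list, was higher in 4 of 5. The sum ranged over 9028 to 99707 units in KO after IFN-γ and 10336 to 212813 in naive KO. In WT it ranged over 12259.9 to 113640 after IFN-γ and 15586 to 172704 in naive mice. The highest value of each group was its R-09 library, and the part of this in the members' differences was not tested.

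**Figure D2:**
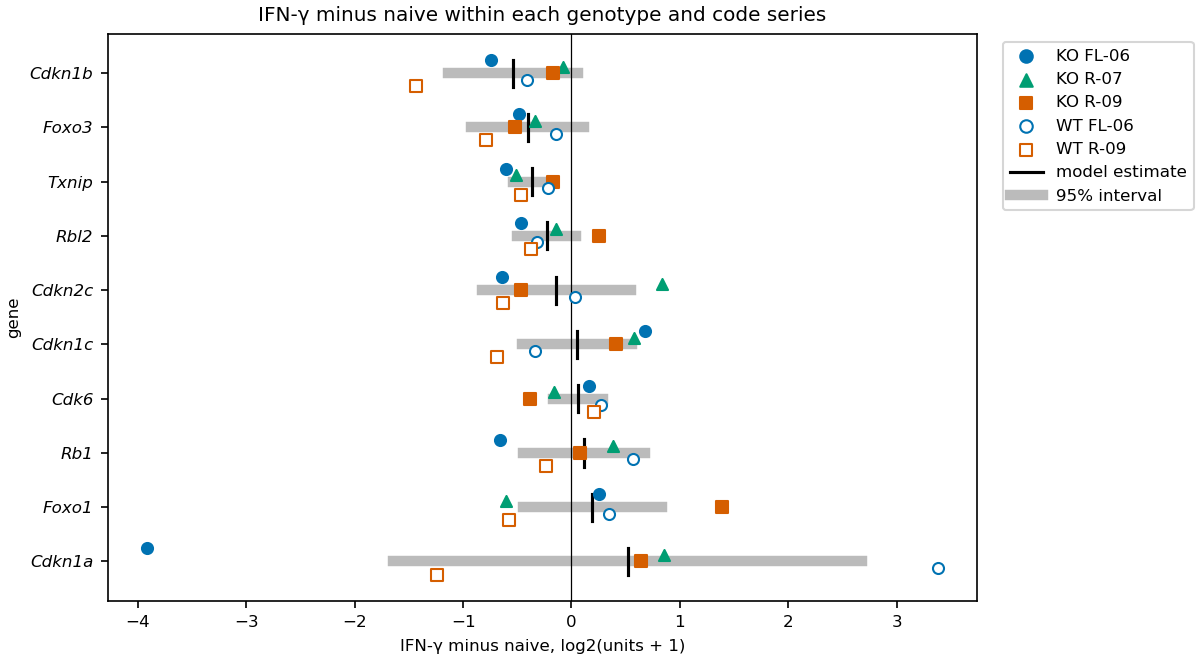
Log2 difference (IFN-γ minus naive) of each gene within each pairing of genotype and code series (points), with the estimate of the fit (black line) and its 95% interval (grey bar). All 5 points lie below 0 for Cdkn1b, Foxo3 and Txnip, and the points of the other 7 genes lie on both sides of 0.

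The promoter windows of these 3 genes are shown because they are the genes whose values were lower in every pairing. Each is the 250 bases before the RefSeq transcription start on build GRCm38.p6, written 5′ to 3′ on the gene's strand, and capitals mark a match to the FOXO motif GTAAACA. The windows are chr3:96557707-96557956 (plus strand) for Txnip, chr6:134920151-134920400 (plus strand) for Cdkn1b and chr10:42276696-42276945 (minus strand) for Foxo3.
Txnip: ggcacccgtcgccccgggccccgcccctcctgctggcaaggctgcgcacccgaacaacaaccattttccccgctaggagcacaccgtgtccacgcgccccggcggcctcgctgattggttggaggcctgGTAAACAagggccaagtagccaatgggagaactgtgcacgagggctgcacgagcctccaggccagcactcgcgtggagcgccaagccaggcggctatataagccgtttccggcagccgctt
Cdkn1b: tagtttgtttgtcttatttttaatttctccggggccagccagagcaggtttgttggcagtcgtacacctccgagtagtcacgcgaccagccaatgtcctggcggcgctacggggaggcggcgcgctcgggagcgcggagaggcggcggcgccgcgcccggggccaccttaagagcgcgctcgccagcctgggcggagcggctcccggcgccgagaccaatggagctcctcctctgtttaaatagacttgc
Foxo3: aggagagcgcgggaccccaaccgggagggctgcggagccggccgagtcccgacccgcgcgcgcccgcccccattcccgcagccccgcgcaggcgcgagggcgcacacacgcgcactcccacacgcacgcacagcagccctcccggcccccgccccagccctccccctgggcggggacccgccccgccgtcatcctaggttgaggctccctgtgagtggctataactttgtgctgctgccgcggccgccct
The Txnip window held 1 match to GTAAACA, which began 121 bases before the start. The search covered both strands, and 3.17% of 32851 promoter windows held this motif. Among 10 windows of 8 of the genes, 1 held it. The interferon-γ-activated sequence TTCNNNGAA was in 0 of the 10 windows and in 7.02% of all windows. The E-box CACGTG was in 1 of the 10 windows, that of Cdk6, and in 6.02% of all windows. A match is a description of these letters only. Cdkn1c and Rb1 had no window.

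The other inhibitors showed no common direction after IFN-γ. Cdkn1c had 274, 626 and 258 units in KO libraries after IFN-γ, against 469.9, 173 and 171 units in naive KO libraries. In WT libraries it had 263, 229.7 and 492 units after IFN-γ, against 386, 251 and 791 units in naive mice. On average, each KO series was higher after IFN-γ and each WT series lower. Cdkn1a had 11.9, 252 and 142 units in KO libraries after IFN-γ, against 161, 78.1 and 193 units in naive KO libraries. WT libraries held 16.3, 26.1 and 85.5 units after IFN-γ, against 3.33, 0 and 204 units in naive mice. This was the most scattered of the 10 genes, and its averaged log2 difference was 0.52 with an SE of 0.98 (−1.12 under quantile normalization). Cdkn2c had 300.1, 444 and 477 units in KO libraries after IFN-γ, against 612, 268 and 467 units in naive KO libraries. In the WT groups the values were 296, 265 and 402 units after IFN-γ, against 161, 462 and 624 units in naive mice. Its groups overlapped in both genotypes, and the averaged log2 difference was −0.14 (SE 0.31).

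The pocket proteins, Foxo1 and Cdk6 likewise had overlapping groups. Rb1, the retinoblastoma protein, had 493, 344 and 855 units in KO libraries after IFN-γ, against 325, 653 and 779.6 units in naive KO libraries. WT libraries had 539, 674 and 315 units after IFN-γ, against 604, 274 and 369.6 units in naive mice. The averaged log2 difference of Rb1 was 0.12 (SE 0.26). Rbl2 encodes p130, the pocket protein of the DREAM complex, which holds cell-cycle genes silent in resting cells. Its level was 1882, 1397 and 1977 units in KO libraries after IFN-γ, against 1168, 2187 and 2607 units in naive KO libraries. In WT libraries it was 1828, 2031 and 1022 units after IFN-γ, against 2874, 2009.5 and 1327 units in naive mice. Rbl2 was lower after IFN-γ in 4 of 5 pairings, where 16.8% of the genes tested were lower in at least 4, and its averaged log2 difference was −0.23 (SE 0.12, adjusted p = 0.80, limma). Foxo1 had 229, 552 and 399.8 units in KO libraries after IFN-γ, against 209.9, 609 and 192 units in naive KO libraries. Levels in WT libraries were 328, 347 and 312 units after IFN-γ, against 262, 269 and 468 units in naive mice. Its averaged log2 difference was 0.19 (SE 0.29), with pairings on both sides of 0. Cdk6 had 9765, 1435 and 11384 units in KO libraries after IFN-γ, against 1874, 12714 and 8749 units in naive KO libraries. In WT libraries it had 10203, 10575 and 1292 units after IFN-γ, against 7859, 9437 and 1119 units in naive mice. The lowest Cdk6 value in each group was again the R-09 library, and the averaged log2 difference was 0.06 (SE 0.10).

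Taken by genotype, no member passed either. In KO libraries, 0 of 10 were called after IFN-γ (limma), where 0% of the genes tested were, and 1 of 10 had an unadjusted p under 0.05 where 2.94% did. That gene was Txnip, at −0.43 on the log2 scale (SE 0.11, adjusted p = 0.9998). In WT libraries 0 of 10 were called, where 0.00925% of the genes tested were, and 1 of 10 had an unadjusted p under 0.05 where 7.43% did. It was again Txnip, at −0.30 (SE 0.11, adjusted p = 0.63). Cdkn1b was at −0.33 in KO and −0.75 in WT, and Foxo3 at −0.45 in KO and −0.36 in WT, with no adjusted p under 0.05. Single libraries moved these values. In KO, Cdkn1b was at −0.015 without KO IFN-γ 1, −0.56 without KO IFN-γ 2 and −0.22 without KO naive 1, and Foxo3 at −0.24 without KO IFN-γ 1 and −0.23 without KO naive 1. In WT, Cdkn1b was at −0.34 without WT IFN-γ 3. In WT, Foxo3 was at −0.017 without WT IFN-γ 3, −0.60 without WT naive 1, −0.088 without WT naive 2 and −0.047 under array weights. Without R-09, Cdkn1b and Foxo3 were both at −0.41 in KO and at −0.41 and −0.14 in WT. The KO effect minus the WT effect was called for 0 of 10 genes, where 0% of the genes tested were, and 1 of 10 had an unadjusted p under 0.05 where 3.39% did. That gene was Cdkn1c, with 0.56 (SE 0.32) in KO and −0.46 (SE 0.32) in WT, a difference of 1.01 (SE 0.46, adjusted p = 0.93, limma). For Txnip the difference of effects was −0.13 (adjusted p = 0.93).

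Loss of Bst2 went with no called difference in the 10 genes. KO minus WT was called for 0 of 10 after IFN-γ, in naive mice and averaged over treatments (limma), where 0% of the genes tested were called in each. Bst2 itself, at −6.61 on the log2 scale averaged over treatments (SE 1.05), had an adjusted p = 0.60 in this fit. At an unadjusted p under 0.05 there were 0 of 10 after IFN-γ, where 2.09% of the genes tested were, and 0 of 10 on average, where 4.23% were. In naive mice there were 2 of 10, where 6.49% were. These were Cdkn1c, at −0.79 on the log2 scale (SE 0.35, adjusted p = 0.71), and Cdk6, at 0.36 (SE 0.16, adjusted p = 0.71). Over all naive libraries the Cdkn1c values overlapped between KO and WT. Within code series the naive KO values were lower, at 171 units against 386 and 251 units in WT in FL-06, and at 469.9 units against 791 units in WT in R-09. The naive Cdk6 values overlapped within FL-06, at 8749 units in KO against 7859 and 9437 units in WT, and the Cdk6 estimate was 0.10 without R-09, 0.15 without KO naive 1 and 0.63 without KO naive 3. Foxo3 averaged 0.50 higher in KO on the log2 scale (SE 0.27, adjusted p = 0.95), 0.10 without R-09 and 0.29 without WT IFN-γ 3. R-07 holds KO libraries alone, so its share of the KO values rests on the fitted series term.

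The largest differences in these genes lay between code series. In R-09 libraries relative to FL-06, at fixed group, 7 of the 10 genes were called (limma), 3 higher and 4 lower, where 35.6% of the genes tested were higher and 32.3% lower. The 70.0% called is thus near the 68.0% of all genes. Folds here are the fitted R-09 over FL-06 values at fixed group, which compare means on the log2 scale. Foxo3 was 33.1-fold lower (log2 −5.05, SE 0.27, adjusted p = 2.14e-08). Cdkn1b, which encodes p27, was 30.7-fold lower (log2 −4.94, SE 0.31, adjusted p = 8.25e-08). Of all genes tested, 1.93% had a lower estimate than Foxo3 and 2.06% a lower one than Cdkn1b, and 7.79% were at least 8-fold lower. Cdk6 was 6.81-fold lower (log2 −2.77, SE 0.12, adjusted p = 3.96e-09), a size passed downward by 9.26% of genes.

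In units, Foxo3 averaged 56.9 ± 26.7 in the R-09 libraries and 1894 ± 532 in the other 8 (SD, n = 4 and 8). Cdkn1b averaged 33.0 ± 12.3 in the R-09 libraries and 961 ± 189 in the others. Cdk6 averaged 1430.2 ± 323 in the R-09 libraries and 10086 ± 1517 in the others. The R-09 values of these 3 genes and of Rbl2 did not overlap those of the other libraries, and 26.0% of the genes tested were separated in that direction. Rbl2, which averaged 1228 ± 168 units in R-09 and 2174 ± 372 in the others, was 1.80-fold lower (log2 −0.85, SE 0.14, adjusted p = 0.00025). Foxo3, Cdkn1b, Cdk6 and Rbl2 were past the threshold with each library left out and under quantile normalization, a pseudocount of 10, no filter and array weights. The fits with no code series or without R-09 give no such estimate.

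On the other side, 3 genes were higher in R-09. Cdkn1c averaged 595 ± 148 units in the R-09 libraries and 251 ± 67.7 in the others, and was 2.35-fold higher (log2 1.23, SE 0.26, adjusted p = 0.00138). It was the only one of the 3 without overlap, as were 29.3% of the genes tested in that direction. Txnip averaged 9941 ± 1408 units in R-09 and 7291 ± 1614 in the others, a ratio of means of 1.36. Its fitted value against FL-06 was 1.46-fold higher (log2 0.55, SE 0.088, adjusted p = 0.000195). Cdkn1a averaged 176 ± 70.7 units in R-09 and 58.8 ± 72.6 in the others, a ratio of means of 2.99. Its fitted value against FL-06 was 10.0-fold higher (log2 3.33, SE 1.12, adjusted p = 0.0205), on a scale where values near 0 weigh heavily. Without WT naive 3 the Cdkn1a estimate was 2.01 (adjusted p = 0.150), without KO IFN-γ 1 it was 2.92 (adjusted p = 0.0651), and without KO IFN-γ 2 it was 3.30 (adjusted p = 0.0547). Rb1 (log2 −0.69, adjusted p = 0.0541), Cdkn2c (0.69, adjusted p = 0.105) and Foxo1 (0.50, adjusted p = 0.196) were not called. Both calls turned on the setting. Rb1 was called without WT naive 2 (−0.86, adjusted p = 0.00201) and without WT naive 3 (−0.91, adjusted p = 0.0366). It was also called under quantile normalization (adjusted p = 0.0281), a pseudocount of 10 (adjusted p = 0.0477) and array weights (adjusted p = 0.00739). Cdkn2c was called without WT naive 2 (0.83, adjusted p = 0.0257) and under array weights (adjusted p = 0.0434). Of the FOXO pair and the Cip/Kip inhibitors, Foxo3 and Cdkn1b were called lower in R-09, Cdkn1c and Cdkn1a higher, and Foxo1 was not called. Calls in either direction were common among all genes tested, so this describes the single genes and not their families. R-07 minus FL-06 gave 0 of 10 called (limma), where 3.57% of the genes tested were. At an unadjusted p under 0.05 there were 2 of 10, Foxo1 at 1.13 (SE 0.47, adjusted p = 0.27) and Txnip at 0.35 (SE 0.13, adjusted p = 0.19), where 15.2% of the genes tested were. With only 2 R-07 libraries, Foxo1 was at 1.85 without KO IFN-γ 3 and 0.42 without KO naive 2.

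**Figure D3:**
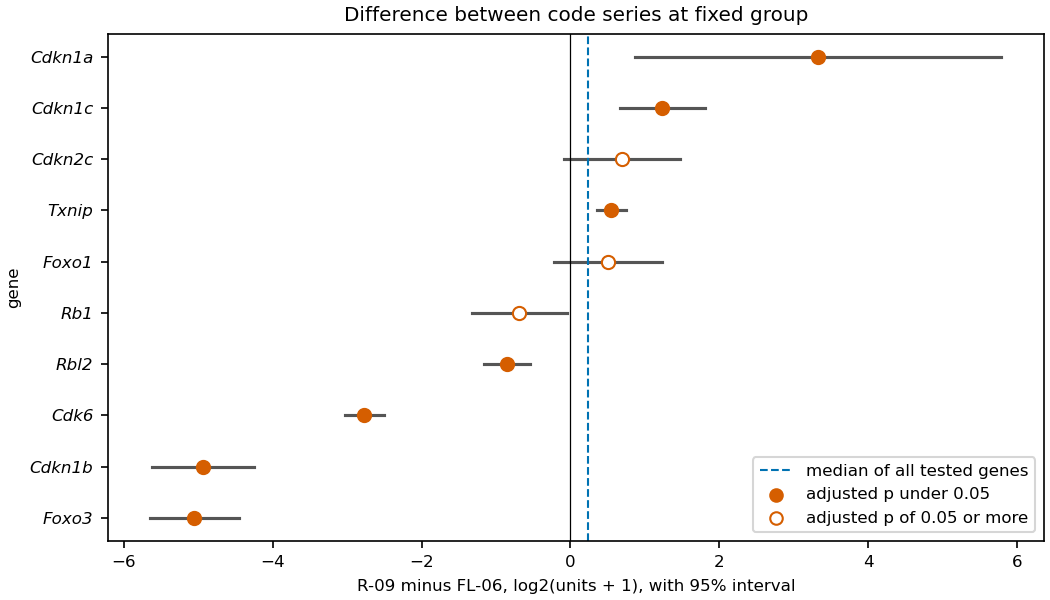
Log2 difference (R-09 minus FL-06, with the 95% interval) of the 10 genes from the fit across all genes tested. Foxo3 (−5.05) and Cdkn1b (−4.94) are the lowest, and Cdkn1a (3.33) is the highest, with the widest interval.

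The R-09 difference ran with transcript length over all genes. Among 10506 of the 10816 genes tested with a length in the GENCODE annotation (97.1%), sorted into 10 groups by length, the median log2 difference was 1.52 in the shortest group and −2.51 in the longest (Spearman rho −0.58 across genes, which share libraries and are not independent). Cdk6, with a transcript of 11525 bases, was in the longest group, where 44.0% of genes were lower still. Foxo3, with 6848 bases, was in the same group, where 7.42% were lower. Foxo1, with 8665 bases, was also there, and 94.96% of that group were lower than it. Cdkn1b, with 4552 bases, was in group 8, whose median was −0.50, and 0.76% of that group were lower. Txnip (2827 bases) was at 0.55 and its group's median at 0.52. Cdkn1c (1901 bases) was at 1.23 and its group's median at 1.07. Rbl2 (4925 bases), in the group of Cdkn1b, was at −0.85 against the median of −0.50. Cdkn1a (2080 bases), in the group of Cdkn1c, was at 3.33, and 94.9% of that group were lower. Cdkn1b was thus far below genes of like length, and Foxo1 far above them. The part of length in each gene's difference was not tested.

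**Figure D4:**
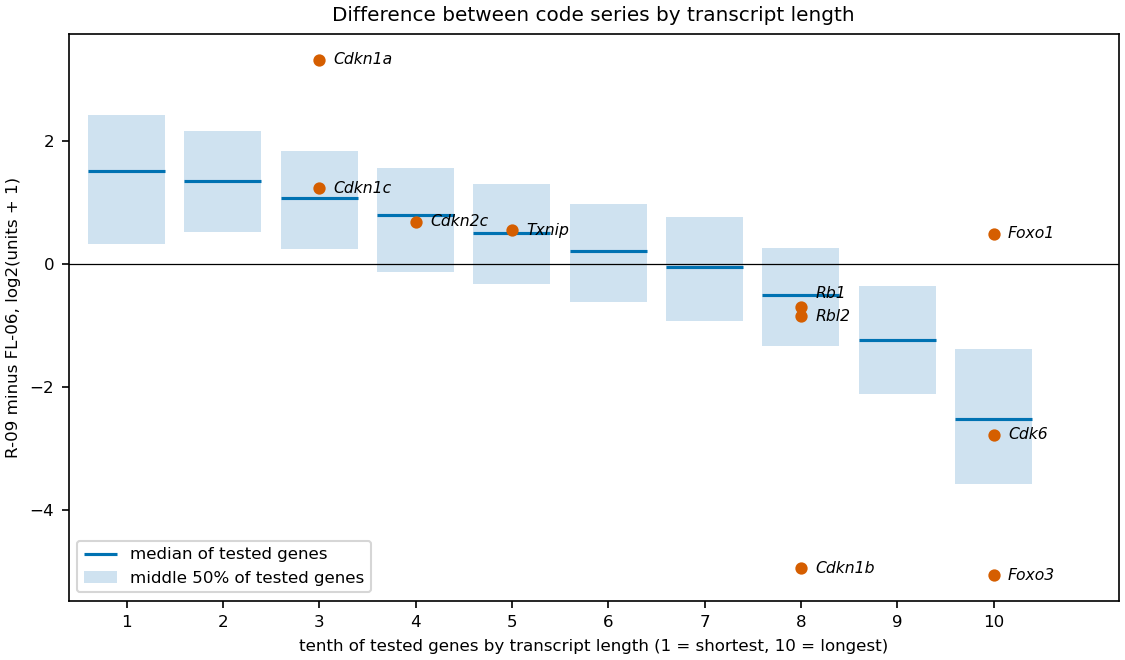
Log2 difference (R-09 minus FL-06) of the 10 genes as labelled points, against the length group (1 the shortest, 10 the longest) of their transcripts; bars span the quartiles of all genes tested in the group and lines mark their medians. Cdkn1b and Foxo3 lie below the quartiles of their groups, and Foxo1 and Cdkn1a above.

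Markers of cells outside the sort gate moved with R-09 too. The summed level of 12 neutrophil markers was 99707 to 212813 units in R-09 and 9028 to 15956 in the other libraries, and that of 11 monocyte and macrophage markers 14574 to 29824 and 1109 to 2381. All 12 neutrophil markers were above 0 in every R-09 library, as were 10 of the 11 monocyte and macrophage markers. The summed level of 10 B and plasma cell markers was 1217 to 1491 in R-09 and 128 to 472 in the others, and that of 9 T and NK cell markers 3485 to 4099 and 66.8 to 449. Every range of these 4 lists lay above that of the other libraries. So did the megakaryocyte sum, at 26552 to 29002 in R-09 and 9513 to 13564 in the others. The erythroid sum (47144 to 84850 and 34934 to 45390) and the multipotent progenitor sum (8832 to 9486 and 4233 to 6117) lay above too. The endothelial and stromal sum overlapped, at 847 to 1118 in R-09 and 870 to 1365 in the others. Most of the T and NK sum was Nkg7, a granule gene of cytotoxic cells, at 3208 to 3732 units in R-09 and 33.6 to 304 in the others. The T cell receptor genes Cd3e and Cd3d were at 0 and at 0 to 1.49 units in R-09, and Fcrla of the B cell list was at 0 in all 4. The 20 HSC marker genes summed to 52582 to 64270 in R-09 and 44364 to 50346 in the others. S100a8, a neutrophil alarmin subunit, was at 11818 to 38198 units in R-09 and 195 to 810 in the others. Mki67, a proliferation marker, was at 332 to 630.3 units in R-09 and 17574 to 24051 in the others. It does not stand for all proliferation markers, of which more were called higher than lower in R-09, as given below. The part of other cells in the differences of the 10 genes was not tested.

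The partners of these genes were read from 9 lists. Averaged over genotypes, IFN-γ called 0 genes in each list (limma), so only counts and medians describe them. Of 13 cyclins and their kinases, 11 had an estimate above 0, with a median of 0.08 on the log2 scale against 0.07 over all genes. Of 19 E2F, DP and DREAM complex genes, 15 were above 0 with a median of 0.16, and of 18 proliferation markers 16 were above 0 with a median of 0.12. The median over all genes was itself above 0, so most genes tested were above 0 too. Their share is not given here, and the list counts are a description only. Of each list, up to 2 genes with the highest mean in units, not corrected for length, are given as examples on the log2 scale. In these 3 lists they were Ccnd2 at 0.03 and Cdk4 at 0.24, Rbbp4 at 0.08 and E2f4 at 0.17, and Mki67 at 0.18 and Mcm6 at 0.13. No gene of these 3 cell-cycle lists passed the test. Of 15 FOXO target genes, 4 were above 0 and the median was −0.11, with the catalase gene Cat at −0.13 and Atm at −0.18. The FOXO family and its upstream kinases had 10 of 16 above 0 with a median of 0.14 (Akt1 at 0.23), and the INK4 and inhibitor turnover list 9 of 11 with 0.15 (Ddb1 at 0.17, Cul4a at 0.04). The p53 list had 7 of 14 above 0 with a median of 0.01 (Trp53 at 0.12, Btg2 at 0.21). The thioredoxin and arrestin list had 6 of 13 above 0 with a median of −0.03 (Prdx2 at −0.03, Prdx1 at −0.04), and the TGF-β and dormancy list 12 of 18 with 0.10 (Egr1 at −0.35, Myc at 0.07). KO minus WT averaged over treatments likewise called 0 genes in each list.

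Between R-09 and FL-06 the same lists held many called genes in both directions, as did all genes tested (35.6% higher and 32.3% lower). The counts that follow describe the lists and are to be read against those shares. Among the FOXO family and upstream kinases 11 of 16 were lower and 3 higher (median −1.07, against 0.23 over all genes). Foxo4, a further FOXO factor, was at −6.32 on the log2 scale, the growth kinase Mtor at −3.85 and the energy-sensing kinase Stk11 at −2.85. The genes that restrain FOXO factors were not all lower. Sgk1, a kinase that also phosphorylates FOXO factors, was at 4.48, Akt1 at 0.89 and Akt2 at 0.81. Sgk1 averaged only 99.8 units over the 12 libraries, and low values weigh heavily on this scale. Its IFN-γ minus naive difference among the KO libraries of FL-06 was −6.10. Of 15 FOXO target genes, 9 were higher and 4 lower, among them the kinase Atm at −4.39. Of 13 cyclins and kinases, 6 were higher and 1 lower: Ccnd3 was at 2.27 and Cdk4, the other partner of D-type cyclins, at 1.95, whereas Ccnd1 was at −1.66 and Cdk6, described above, was lower. The kinases that partner D-type cyclins thus differed in direction, Cdk4 higher and Cdk6 lower in R-09. Cdk6, at −2.77, was near the median of its length group (−2.51), and the list values here were not set against length. Of 19 E2F and DREAM genes, 5 were higher and 9 lower, with E2f1 at 1.39, E2f3 at −2.31 and the third pocket protein gene, Rbl1, at −1.04. Of 11 INK4 and turnover genes, 4 were higher and 4 lower, with the INK4 inhibitor Cdkn2d at 2.59 and Fbxw7, a ubiquitin ligase subunit, at −2.81. The thioredoxin and arrestin list had 8 of 13 higher and 2 lower, including thioredoxin itself (Txn1) at 2.48, the protein that Txnip binds. Txnip and Txn1 were both higher in R-09. The p53 list had 6 of 14 higher and 4 lower, the TGF-β and dormancy list 8 of 18 higher and 7 lower, and the proliferation markers 10 of 18 higher and 5 lower. Within that last list Mki67 was at −5.50, Cenpf at −4.08 and Top2a at −2.38, whereas Cdc20 was at 2.36 and Tk1 at 2.06.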

How the data were processed

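The series' deposited table gave 1 column per library for 24972 rows, and 26 rows whose gene names had become dates were dropped. Per the submitters' processing notes, STAR and DESeq were used, with no version given. The genome build, annotation and strand setting were not given in the sources used here. HSCs were sorted as Lineage- c-Kit+ CD150+ CD48- CD34- cells, and libraries came from a Takara stranded total RNA kit, per the labels. The values the authors deposited are a signal, normalized counts that are not whole numbers: only 2.15% to 4.43% were whole multiples (within 0.01) of a library's commonest low value, so reads could not be recovered, depth is unknown and no count test was used.

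Genes with at least 100 units in at least 3 libraries (10816) were fitted as log2(value + 1) with limma 3.58.1 (R 4.3.3, empirical Bayes with trend, two-sided, Benjamini-Hochberg, threshold 0.05). Each fit used the 4 group means and the code series (6 residual degrees of freedom). Adding 1 shrinks fold changes of low genes, and folds compare means of log values, so with values near 0 they can exceed the ratio of plain means. The steps were tested on simulated data. The genes, lists and comparisons were chosen with earlier results of these data known. All 10 genes are named. From each list, the 2 genes of highest mean are named for IFN-γ (1 is not reported here), and for R-09, where every called gene would be too many, examples chosen after their values were seen. Promoter sequences and starts are from RefSeq (GRCm38.p6) and transcript lengths from GENCODE. Alternatives were quantile normalization, a pseudocount of 10, no filter, no code series, a replicate block, array weights, each library left out and, added after seeing the data, no R-09 libraries. Overlapping and antisense genes cannot be told apart without the counting rule.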

Additional observations from a re-analysis of the deposited data

Results flagged for a closer look

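Cdkn1c was singled out because its IFN-γ effect was above 0 in every code series of KO and below 0 in every code series of WT. The fitted effects of Cdkn1a, Rb1 and Cdk6 also had opposite signs in the genotypes, but their code series within a genotype did not all share a sign. Among KO libraries the log2 difference (IFN-γ minus naive) was 0.68 within FL-06, 0.58 within R-07 and 0.41 within R-09. Among WT libraries it was −0.34 within FL-06 and −0.69 within R-09. The difference of the effects, KO minus WT, was 1.01 on the log2 scale (SE 0.46, 95% interval 0.0047 to 2.02). Its unadjusted p was 0.0491 and its adjusted p 0.93 (limma), so it did not pass the threshold. Cdkn1c was picked for its signs in these same values. The p-values and the estimates with libraries left out are therefore no separate evidence for the pattern. The share of all genes tested with these signs is not given here, so how unusual the pattern is was not tested. Within FL-06 the WT libraries overlapped, at 263 and 229.7 units after IFN-γ and 386 and 251 units in naive mice. Leaving out each library in turn gave 0.87 to 1.20, and leaving out R-09 gave 0.97 (adjusted p = 0.84).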

How the results depend on the processing

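Over 19 alternatives, 1680 estimates of the 10 genes were recomputed. The sign differed in 106, none of them past the threshold, 4 calls were lost and 8 gained. The 4 lost calls were all Cdkn1a in R-09 minus FL-06, and under the replicate block it was 2.62 (adjusted p = 0.0751, limma), while the block changed no other call among the 10 genes. No gene of the 10 was called in an IFN-γ, KO minus WT or interaction comparison under any alternative. Txnip after IFN-γ, averaged over genotypes, stayed at −0.39 to −0.36 under the alternatives other than left-out libraries, with adjusted p-values from 0.0564 (array weights) to 0.9999 (no code series), and at −0.42 to −0.32 with each library left out.

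Counts of all genes past the threshold moved more. The fits above called 1 gene after IFN-γ in WT, 0 in KO, 7 averaged over genotypes, 0 in each KO minus WT comparison and in the interaction, 7352 for R-09 and 386 for R-07. Quantile normalization called 4 in WT, 7 in KO, 29 averaged and 1 for KO minus WT averaged, and it called 1 of the 10 genes, Txnip, in R-07 (0.53, adjusted p = 0.0477). A pseudocount of 10 called 5 in WT, 13 averaged and 1 for KO minus WT averaged. No filter called 2 in WT, and no code series called 0 in WT and 0 averaged. The replicate block called 0 in WT and 169 for R-07. Array weights called 9 in WT, 7 in KO, 42 averaged, 1 for KO minus WT averaged and 838 for R-07. Without R-09, 2 were called in WT, 2 for KO minus WT after IFN-γ, 3 for KO minus WT averaged, 1 in the interaction and 205 for R-07. Leaving out each library gave 0 to 15 in WT, 0 to 7 in KO, 3 to 22 averaged, 0 to 3 for KO minus WT in naive mice, 0 to 1 after IFN-γ and 0 to 1 averaged, 0 to 2 in the interaction, 6464 to 8238 for R-09 (6 to 9 of the 10 genes) and 2 to 931 for R-07. The cause of these moves was not tested.

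Signs that turned in the averaged IFN-γ effect, all far from the threshold, were Cdkn1a under quantile normalization (−1.12) and a pseudocount of 10 (−0.023), and Cdkn2c under array weights (0.036) and without R-09 (0.067). With each library left out, Cdkn1a ranged from −0.063 to 1.29, Cdkn1c from −0.042 to 0.12, Cdkn2c from −0.39 to 0.021, Rb1 from −0.084 to 0.26, Cdk6 from −0.038 to 0.15 and Foxo1 from −0.025 to 0.43. Replicate numbers did not pair the samples, so the block is given here alone. With the code series left in, 8 of 18 same-number pairs had a correlation of deviations above 0.1, from −0.88 to 0.83. With the code series removed, 8 of 18 did, from −0.55 to 0.44. With 3 libraries a group, and 4 in R-09, small differences are beyond these data, and depth is unknown.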
